A study of Mus musculus with 6 samples.

Results

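Conventional λ light chain and the surrogate light chain were followed through 4 genes: Iglv1, a variable segment of the λ light chain locus, Igll1, which encodes λ5, and Vpreb1 and Vpreb3. The genes were taken by every probe set that carried a single gene symbol equal to one of these names. This gave 7 of the 45101 probe sets of the array: 3 for Iglv1, 2 for Igll1, 1 for Vpreb1 and 1 for Vpreb3. Another 2 probe sets list a member together with a second gene, Iglc1 with Iglv1 and Vpreb2 with Vpreb1, and are described beside the members without being counted among them.

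The arrays measured total RNA of sorted bone marrow B cells from C57BL/6 mice of 8 to 12 weeks and mixed sex. The first group was TAK1-deficient Igκ+ cells, labelled mb-1/TAK1f/f, and the other groups, both labelled mb-1/TAK1+/+, were wild-type Igλ+ cells and wild-type Igκ+ cells, with 2 arrays in each group. TAK1 is a MAP kinase kinase kinase upstream of NF-κB. All groups were untreated, had been depleted of CD3+, Ter119+, CD11b+, DX5+ and Gr1+ cells, and were then sorted for surface Igκ or Igλ. The labels put mb-1 in every group, do not say what it stands for, and do not say how far TAK1 was lost or whether animals were pooled. No TAK1-deficient Igλ+ cells were among the samples.

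A B cell precursor first makes an immunoglobulin heavy chain and has no light chain to pair it with. The surrogate light chain, formed by λ5 and a VpreB protein, takes that place and lets the heavy chain reach the surface as the pre-B cell receptor. Signals from this receptor expand the precursors, after which the surrogate light chain genes are switched off and κ or λ genes are rearranged. In the mouse most B cells carry κ and a minority carries λ. Vpreb3 encodes a relative of the VpreB proteins that binds newly made heavy chain inside the cell and is still transcribed after the pre-B stage.

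The genes of the surrogate light chain are shown here by the sequence before their start sites, because 3 of them lie on chromosome 16 and because the Vpreb1 and Vpreb2 probe sets cannot be fully separated by gene. In RefSeq's table Igll1 and Vpreb1 are direct neighbours on chromosome 16, with 0 annotated genes between them. Iglv1 and Vpreb2 lie on the same chromosome and Vpreb3 on chromosome 10. Each line gives the 250 bases before the annotated start, 5′ to 3′ on the gene's strand, from RefSeq's promoter table of GRCm38.p6. Capitals mark matches to CCCNNGGG, the core recognised by EBF, CAGGTG, an E box bound by E2A, ATGCAAAT, the octamer of immunoglobulin promoters, or TGGGAA, bound by Ikaros, each searched on both strands and chosen after the sequences were seen.
Igll1, chr16:16863986-16864235, minus strand: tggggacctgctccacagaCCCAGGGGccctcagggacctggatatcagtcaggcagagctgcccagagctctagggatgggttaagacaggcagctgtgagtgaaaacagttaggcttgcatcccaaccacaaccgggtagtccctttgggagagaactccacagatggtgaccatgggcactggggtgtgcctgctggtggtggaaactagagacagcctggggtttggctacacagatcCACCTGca
Vpreb1, chr16:16869256-16869505, minus strand: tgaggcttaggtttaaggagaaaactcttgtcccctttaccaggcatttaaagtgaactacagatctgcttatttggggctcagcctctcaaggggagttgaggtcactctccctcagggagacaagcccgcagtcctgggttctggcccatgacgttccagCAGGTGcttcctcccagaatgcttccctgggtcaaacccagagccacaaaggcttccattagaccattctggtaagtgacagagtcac
Vpreb3, chr10:75948050-75948299, plus strand: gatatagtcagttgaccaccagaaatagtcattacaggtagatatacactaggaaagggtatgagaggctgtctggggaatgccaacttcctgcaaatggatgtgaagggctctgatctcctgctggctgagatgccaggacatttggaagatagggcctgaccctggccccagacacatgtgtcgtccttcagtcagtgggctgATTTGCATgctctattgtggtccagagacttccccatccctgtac

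The Igll1 window held 1 match to the EBF core and 1 to the E box, the Vpreb1 window 1 match to the E box, and the Vpreb3 window 1 match to the octamer. The octamer is the rarest of the 4 motifs: 1.6% of 32851 promoter windows of the same length held it, against 17.2% for the E box, 11.8% for the EBF core and 21.6% for the Ikaros motif. A match describes letters only and is not evidence of binding. The windows of Vpreb1 and Vpreb2, taken with the 50 bases after each start, could be laid over each other for 156 bases, of which 153 (98.1%) were identical. Iglv1 is named without a sequence.

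Signals are given here as deposited, as linear intensities per probe set. The TAK1-deficient arrays stood apart from the other 4. Their spiked hybridization controls had a geometric mean signal of 41197 and 47043, against 3985 to 4608 on the wild-type arrays, and the median signal of all probe sets was 323 and 324, against 44.9 to 59.1. The Actb signal at its 3′ end over that at its 5′ end, which grows with RNA degradation, was 4.18 and 6.28, against 1.25 to 1.58. Array quality and genotype cannot be told apart in this design, so the members' genotype differences are also given under other scalings of the arrays. Unspiked bacterial controls give the background: their 95th percentile was 75.7 and 77.7 on the TAK1-deficient arrays and 10.3 to 17.4 on the wild-type arrays. All 7 member probe sets were above this level on all 6 arrays. All 7 B cell markers with a probe set of their own, Cd79a, Cd79b and Ms4a1 among them, were above background on every array. Map3k7, the gene of TAK1, was lower in TAK1-deficient than in wild-type Igκ+ cells at 5 of its 6 probe sets, 4 of them past limma's threshold described below. The brightest had 346 and 599 in TAK1-deficient Igκ+ cells, 2149 and 1957 in wild-type Igλ+ cells, and 2196 and 1805 in wild-type Igκ+ cells. Whether these probes lie in the floxed part of the gene is not given in the sources used here.

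**Figure D1:**
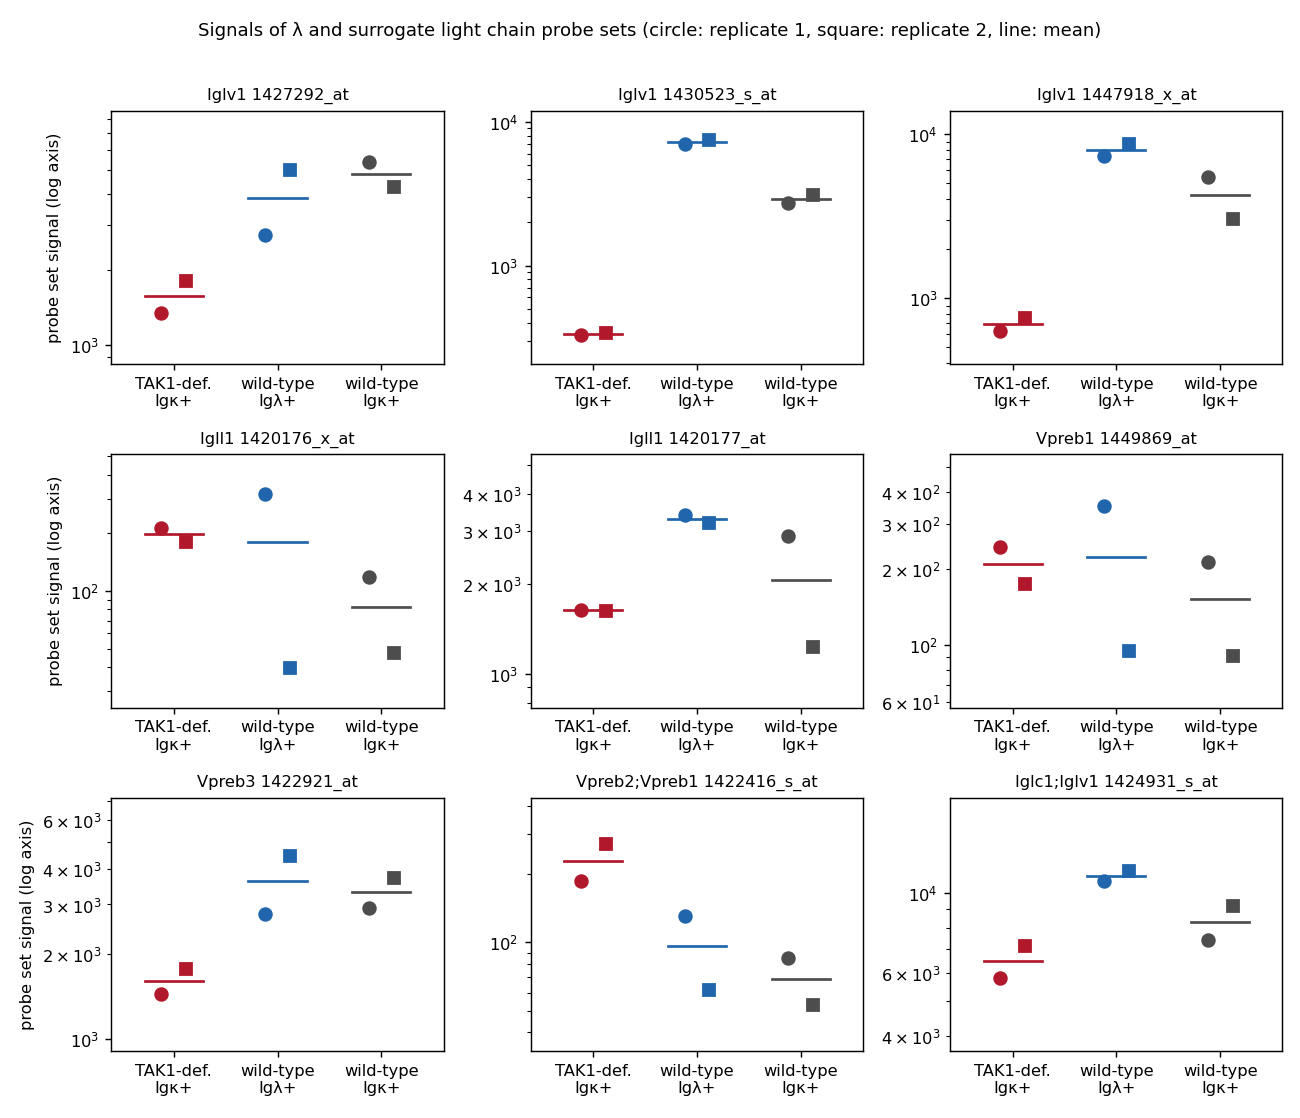
Signal of each probe set (log axis) on every array of the 3 groups. Circles are replicate 1, squares replicate 2 and lines the mean of the 2 arrays. Iglv1 _s_at separates all 3 groups, while Vpreb1 and Igll1 _x_at differ most within the wild-type groups.

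Iglv1 signal was highest in wild-type Igλ+ cells and lowest in TAK1-deficient Igκ+ cells at the probe sets whose names end in _s_at and _x_at. The _s_at probe set had 331 and 340 in TAK1-deficient Igκ+ cells, 6978 and 7443 in wild-type Igλ+ cells, and 2740 and 3102 in wild-type Igκ+ cells. The 3 groups did not overlap, and the 2 arrays of each group lay close together. The _x_at probe set had 634 and 752 in TAK1-deficient Igκ+ cells, 7382 and 8683 in wild-type Igλ+ cells, and 5490 and 3018 in wild-type Igκ+ cells. The order of the groups was the same, again with no overlap, but the wild-type Igκ+ arrays differed from each other by 1.82-fold. The third, ending in _at alone, had 1345 and 1794 in TAK1-deficient Igκ+ cells, 2737 and 4976 in wild-type Igλ+ cells, and 5382 and 4263 in wild-type Igκ+ cells. Here the wild-type groups overlapped, so the Iglv1 probe sets disagreed on the difference between Igλ+ and Igκ+ cells. In Affymetrix naming the endings _s_at and _x_at mark probes shared between similar transcripts, so signal from other λ segments cannot be separated from Iglv1.

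Sorted wild-type Igκ+ cells had a bright Iglv1 signal. On these arrays the Iglv1 probe sets stood between the percentiles 93.4 and 98.4 of all probe sets. On the Igλ+ arrays _s_at stood at percentiles 99.2 and 99.3, and on the TAK1-deficient arrays at 50.8 and 51.9. The other Iglv1 probe sets stood higher on the TAK1-deficient arrays, _x_at at 73.1 and 78.4 and _at at 90.9 and 94.5. A percentile within an array does not change with the single factor by which each array was scaled. It does depend on how the other probe sets of that array are distributed, which differed between the genotypes. The probe set shared by Iglc1, a λ constant region, and Iglv1 had 5783 and 7125 in TAK1-deficient Igκ+ cells, 10791 and 11495 in wild-type Igλ+ cells, and 7409 and 9221 in wild-type Igκ+ cells. It was among the brightest of every array, at percentile 99.1 or above.

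Surrogate light chain probe sets were above the unspiked controls in all groups, although the cells had been sorted for a conventional light chain. Not all of them were bright. The Igll1 probe set ending in _at alone had 1637 and 1624 in TAK1-deficient Igκ+ cells, 3386 and 3185 in wild-type Igλ+ cells, and 2883 and 1231 in wild-type Igκ+ cells. The wild-type Igκ+ arrays lay on both sides of the TAK1-deficient ones. The other Igll1 probe set, ending in _x_at, was much dimmer, with 213 and 180.0 in TAK1-deficient Igκ+ cells, 320.2 and 39.5 in wild-type Igλ+ cells, and 118 and 47.6 in wild-type Igκ+ cells. Its wild-type groups overlapped, and the Igλ+ arrays differed from each other by 8.12-fold. Vpreb1 had 243 and 174 in TAK1-deficient Igκ+ cells, 350.3 and 94.8 in wild-type Igλ+ cells, and 213 and 91.1 in wild-type Igκ+ cells, so its 3 groups overlapped. On the TAK1-deficient arrays Vpreb1 stood at percentiles 39.7 and 29.3 and Igll1 _x_at at 35.2 and 30.3, below the median of all probe sets. The probe set of Vpreb2 and Vpreb1 had 187 and 271 in TAK1-deficient Igκ+ cells, 130.4 and 61.7 in wild-type Igλ+ cells, and 85.5 and 52.8 in wild-type Igκ+ cells. Vpreb3 had 1443 and 1768 in TAK1-deficient Igκ+ cells, 2778 and 4478 in wild-type Igλ+ cells, and 2927 and 3741 in wild-type Igκ+ cells. Its TAK1-deficient arrays lay below all wild-type arrays, and its wild-type groups overlapped.

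The first comparison asked how TAK1 deficiency alters these transcripts in Igκ+ cells. Iglv1 fell at all 3 probe sets and Vpreb3 fell, while Igll1 and Vpreb1 did not pass the test. Differences are of log2(signal + 16), with limma's SE and p-values adjusted by the Benjamini-Hochberg method over all 45037 probe sets that are not array controls, and a threshold of 0.05. Of the 7 member probe sets 4 were called, all lower, where 21.8% of all probe sets were called lower and 56.8% higher. The same 4 lay below the wild-type arrays without overlap, as did 26.5% of all probe sets. With the level adjustment, which removes each TAK1-deficient array's lowess trend against the mean wild-type level, 2 were called lower and 1 higher (19.9% and 23.6% of all). With spike-in scaling or median centring 6 were called lower (47.4% and 47.5% of all). The members' median difference was -1.04, against 1.53 for all probe sets, whose median was -0.0051 with the level adjustment and -0.19, -0.85 and -0.86 under the other scalings. Brighter probe sets fell more often. Of the 18011 above the 60th percentile of mean signal, 8934 were called lower and 4991 higher, with a median of -0.69. The members among them were 5, of which 4 were called lower. RNA of a whole sample was measured, so fewer cells with a transcript and less transcript per cell cannot be told apart.

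Plasma cell markers, from cells rich in immunoglobulin transcripts, had a lower summed signal on the same arrays, but not every marker was lower. Their summed signal, over 6 genes, was 3077 and 3959 in TAK1-deficient Igκ+ cells, 19568 and 8887 in wild-type Igλ+ cells, and 28970 and 20445 in wild-type Igκ+ cells. Jchain, the joining chain of secreted antibodies, had 526 and 538 in TAK1-deficient Igκ+ cells, 4147 and 117 in wild-type Igλ+ cells, and 9837 and 4130 in wild-type Igκ+ cells. Prdm1 went the other way, with 391 and 759 in TAK1-deficient Igκ+ cells, against 219 and 107 in wild-type Igκ+ cells. In wild-type Igλ+ cells it had 71.7 and 90.5. Sdc1, with 999 and 1082 in TAK1-deficient Igκ+ cells, lay between the Igλ+ arrays, at 814 and 1730. It had 2260 and 1928 in wild-type Igκ+ cells. All 6 markers were above background on every array, and none was at 0. Their part in the Iglv1 and Vpreb3 differences was not tested.

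At its _s_at probe set Iglv1 averaged 335 ± 5.94 in TAK1-deficient Igκ+ cells and 2921 ± 256 in their wild-type counterparts (SD, n = 2 each). It fell by 3.06 ± 0.17 on the log2 scale (limma, adjusted p = 1.08e-05), or 8.71-fold by the means. The _x_at probe set fell by 2.53 ± 0.28 (limma, adjusted p = 0.000135), and the _at probe set fell by 1.61 ± 0.30 (limma, adjusted p = 0.00186). The _s_at probe set was lower than in wild-type Igκ+ cells under every scaling, with differences of -1.78 with the level adjustment, -6.29 with spike-in scaling, -5.44 with median centring and -4.27 after quantile normalization. The _x_at probe set of Iglv1 stayed past the threshold in each of these as well, with differences between -1.37 and -5.87. The _at probe set of Iglv1 had a difference of -0.29 with the level adjustment and no longer passed (limma, adjusted p = 0.429). The brighter probe set of Iglc1 and Iglv1 fell by 0.36 ± 0.14 (limma, adjusted p = 0.0490). It was -0.21 without TAK1-deficient replicate 1 (limma, adjusted p = 0.286) or without wild-type Igκ+ replicate 2 (0.246), and the call ended too without either Igλ+ array, with either other pseudocount, with either filter, without the trend and in a fit of the 4 arrays compared. With the level adjustment it passed as higher, at 0.50 (limma, adjusted p = 0.0154).

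Vpreb3 averaged 1605 ± 230.2 in TAK1-deficient Igκ+ cells, against 3334 ± 576 in the wild type (SD, n = 2 each), and fell by 1.04 ± 0.26 (limma, adjusted p = 0.00797). This call rested on the scaling: the difference was -0.26 after quantile normalization (limma, adjusted p = 0.433) and 0.38 with the level adjustment (0.252), but -4.45 with spike-in scaling and -3.42 with median centring. Without wild-type Igκ+ replicate 2 the Vpreb3 difference was -0.87 (limma, adjusted p = 0.0604). 

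Igll1 and Vpreb1 gave no direction that held across scalings. The Igll1 probe set _at differed by -0.21 ± 0.36 (limma, adjusted p = 0.610) as deposited, by -2.59 with median centring (0.000193), by -3.61 with spike-in scaling (1.38e-05) and by 1.28 with the level adjustment (0.0244). It reached -0.82 without wild-type Igκ+ replicate 2 (limma, adjusted p = 0.0107) and turned to 0.40 without replicate 1. The Igll1 probe set _x_at differed by 1.20 ± 0.80 (limma, adjusted p = 0.2004), turned negative under the other 4 scalings, and passed as higher in a fit of the 4 Igκ+ arrays alone (limma, adjusted p = 0.0322) and without either wild-type Igλ+ array. Vpreb1 differed by 0.50 ± 0.62 (limma, adjusted p = 0.473) and by -2.52 with spike-in scaling, -1.88 with median centring and -1.84 after quantile normalization, each past the threshold. The probe set of Vpreb2 and Vpreb1 rose by 1.53 ± 0.41 (limma, adjusted p = 0.0111), which equals the median of all probe sets, and had a negative difference under the other 4 scalings.

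**Figure D2:**
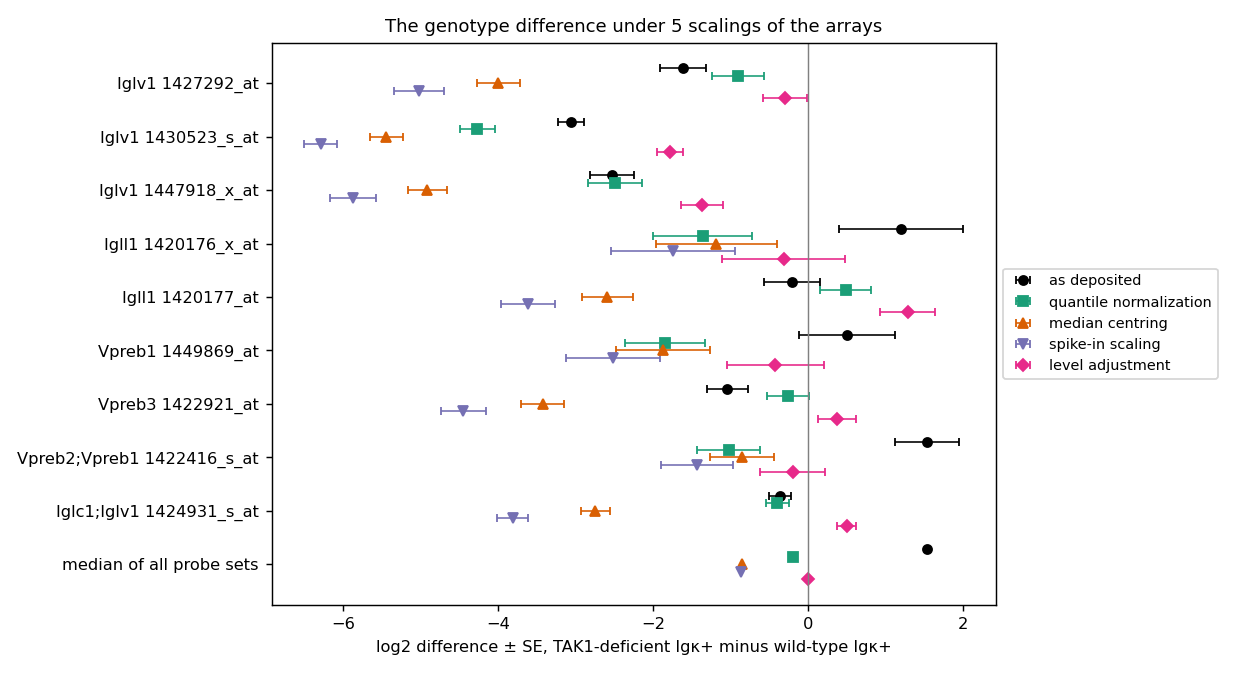
Log2 difference ± SE of TAK1-deficient against wild-type Igκ+ cells for each probe set under 5 scalings of the arrays, with the median of all probe sets in the bottom row. Iglv1 _s_at and _x_at lie below 0 under all 5, while the Igll1, Vpreb1 and Vpreb3 probe sets lie on both sides of 0.

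The second comparison was between the light chain classes of wild-type cells, Igλ+ over Igκ+. Iglv1 was brighter in Igλ+ cells at 2 of its 3 probe sets, and no member passed the test after adjustment. Of all probe sets 0.0% were called in limma (smallest adjusted p = 0.999988), and 1.98% had an unadjusted p under 0.05. Without Igλ+ replicate 2, 25 probe sets were called, none of them a member. Of the 7 members, 2 had one, both of Iglv1, and 6 had a higher mean log2 signal in Igλ+ cells.

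Iglv1 _s_at averaged 7211 ± 328 in wild-type Igλ+ and 2921 ± 256 in wild-type Igκ+ cells (SD, n = 2 each). That is a log2 difference of 1.30 ± 0.17, or 2.47-fold by the means, and its unadjusted p (limma, 0.000131) was the smallest of all 45037 probe sets. Leaving out any wild-type array moved it between 1.21 and 1.39. The _x_at probe set averaged 8033 ± 920 in Igλ+ and 4254 ± 1748 in Igκ+ cells, a difference of 0.97 ± 0.28 (limma, unadjusted p = 0.0106). It was 1.40 without wild-type Igκ+ replicate 1 and 0.54 without replicate 2. The _at probe set differed by -0.37 ± 0.30, and by 0.055 without Igλ+ replicate 1. The probe set of Iglc1 and Iglv1 was higher by 0.43 ± 0.14 (limma, unadjusted p = 0.0198). The 2 Igλ+ arrays agreed closely on Iglv1 _s_at although their κ signals were far apart: Igkv14-111 had 7.81 and 858 there, against 7223 and 5985 on the wild-type Igκ+ arrays. At the brightest κ probe sets Igλ+ replicate 2 came closer to the Igκ+ arrays. The brightest, of Igk, had 503 and 10128 on the Igλ+ arrays, against 11754 and 12400 on the wild-type Igκ+ arrays. Igkv8-30 had 188 and 6132, against 8564 and 9218.

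Igll1 _at averaged 3285 ± 142 in wild-type Igλ+ and 2057 ± 1168 in wild-type Igκ+ cells (SD, n = 2 each), a log2 difference of 0.80 ± 0.36 (limma, unadjusted p = 0.0630). The groups did not overlap for 3 members, all higher in Igλ+ cells, namely Igll1 _at and the Iglv1 _s_at and _x_at probe sets, where 19.3% of all probe sets were higher without overlap. The Igll1 difference rested on wild-type Igκ+ replicate 2, without which it was 0.19. It was 1.40 without replicate 1. Igll1 _x_at, Vpreb1 and Vpreb3 differed by 0.57 ± 0.80, 0.36 ± 0.62 and 0.092 ± 0.26, each less than the spread between arrays of a group.

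**Figure D3:**
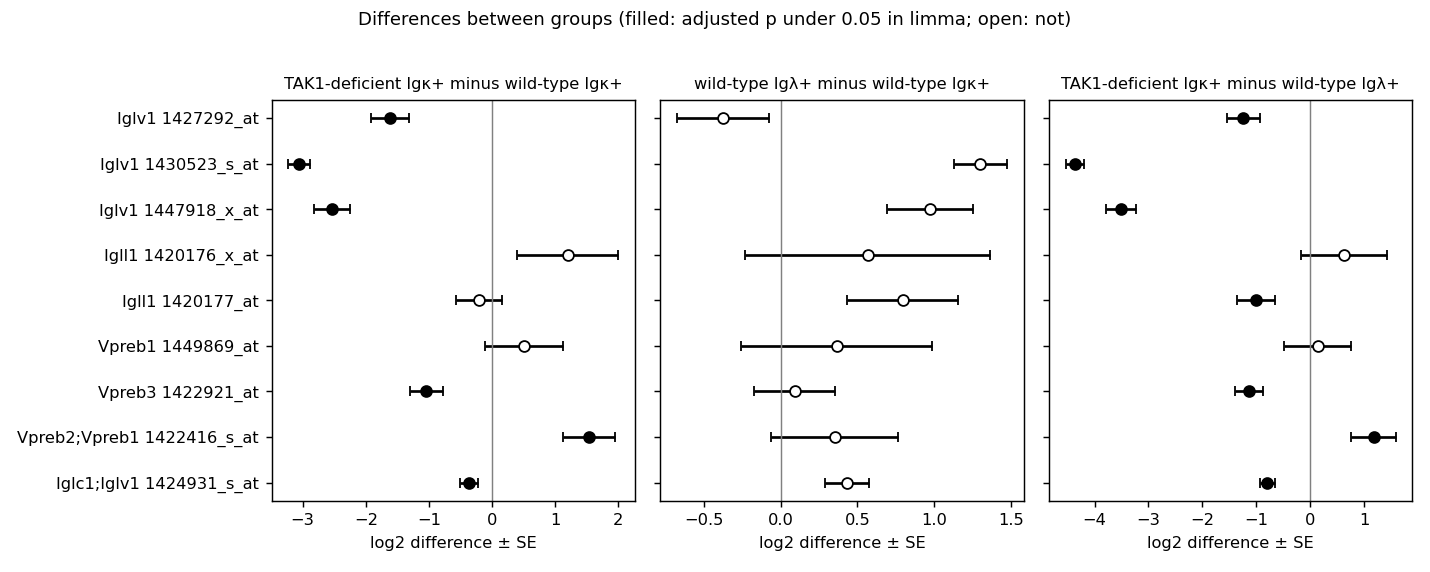
Log2 difference ± SE of each probe set in the 3 comparisons, as deposited. Filled points have a limma adjusted p under 0.05 and open points do not. Iglv1 _s_at stands at -3.06, 1.30 and -4.36 from left to right.

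The third comparison set TAK1-deficient Igκ+ cells against wild-type Igλ+ cells, so that both genotype and light chain differ. It shares its arrays with the other comparisons and is not separate evidence. Of the 7 members 5 were called, all lower, where 22.0% of all probe sets were called lower and 55.8% higher. Of the 18011 probe sets above the 60th percentile of mean signal, 8983 were called lower and 5171 higher. The 5 members among them were all called lower. Iglv1 _s_at averaged 335 ± 5.94 in the TAK1-deficient cells, against 7211 ± 328 in wild-type Igλ+ cells, and fell by 4.36 ± 0.17 (limma, adjusted p = 1.27e-05), or 21.5-fold by the means. Its _x_at probe set fell by 3.51 ± 0.28, and its _at probe set fell by 1.24 ± 0.30. Vpreb3 fell by 1.14 ± 0.26 (limma, adjusted p = 0.00545), and the Igll1 _at probe set fell by 1.003 ± 0.36 (0.0359), a call that ended without any one of the 4 arrays compared (0.0877 to 0.112). Of the members, 7 were called lower with spike-in scaling, 6 with median centring and 4 after quantile normalization, where 47.2%, 46.7% and 34.2% of all probe sets were. Quantile normalization ended the calls of Vpreb3 (-0.38; limma, adjusted p = 0.253), Iglv1 _at (-0.52; 0.203) and Igll1 _at (-0.22; 0.581). With the level adjustment 2 members were called, both Iglv1 and lower, where 22.3% of all were. The differences of Iglv1 _at, Vpreb3 and Igll1 _at then turned to 0.081, 0.28 and 0.49. Igll1 _x_at and Vpreb1 differed by 0.63 ± 0.80 and 0.14 ± 0.62 as deposited, and both were negative under the other 4 scalings.

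Vpreb1 and Igll1 _x_at varied together across the wild-type arrays. Replicate 1 was at least 2-fold above replicate 2 in both wild-type groups for these 2 of the 7 members, as it was for 4.9% of all probe sets. Dntt, which encodes the terminal transferase of early precursors, shared this pattern, with 1287 and 43.3 in wild-type Igλ+ cells and 353 and 111 in wild-type Igκ+ cells. Among the genes typical of precursor B cells counted below, Kit shared it too, but most did not. In wild-type Igλ+ cells replicate 1 was at 0.66 of replicate 2 for Rag1, 0.49 for Cd93 and 0.11 for Bst1. For Rag2 it was at 1.06. The granulocyte markers shared the pattern of Vpreb1 and Igll1 _x_at too. The summed signal of 10 such markers, S100a8, Mpo and Elane among them, was 8517 and 9089 in TAK1-deficient Igκ+ cells, 37381 and 332 in wild-type Igλ+ cells, and 5261 and 317 in wild-type Igκ+ cells. All 10 were above background on Igλ+ replicate 1 and 5 on replicate 2, and none was at 0. The summed signal of 8 monocyte and macrophage markers was 10468 and 547 in Igλ+ cells and 2237 and 955 in wild-type Igκ+ cells. Not every marker shared the pattern. In wild-type Igκ+ cells Lyz2 had 1438 and 314, Cd68 had 196 and 185, and Ccr2 went the other way, at 126 and 168. The summed signal of 4 NK cell markers was 1459 and 114 in Igλ+ cells and 282 and 2421 in wild-type Igκ+ cells. The part of other cells in the Vpreb1 and Igll1 signals was not tested. Vpreb3 and Iglv1 _s_at did not share the pattern, and both were lower on replicate 1 of every group, at 0.62 of replicate 2 for Vpreb3 in wild-type Igλ+ cells.

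**Figure D4:**
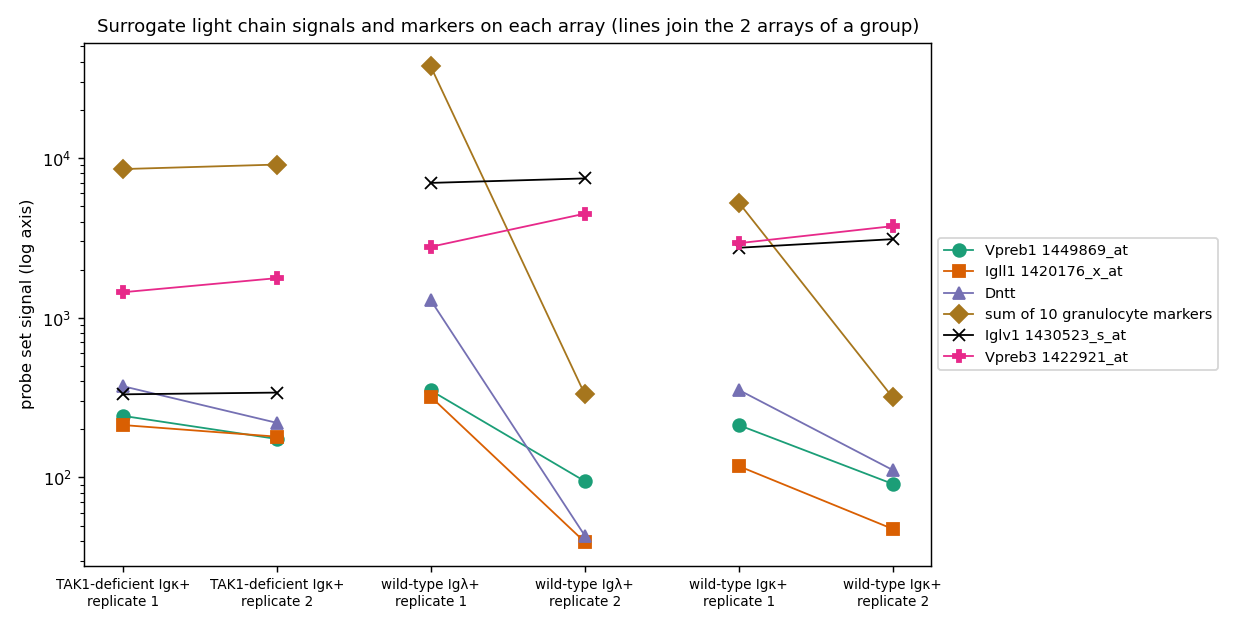
Signal (log axis) of 4 member probe sets, Dntt and the sum of 10 granulocyte markers on each array, with lines joining the 2 arrays of a group. In both wild-type groups Vpreb1, Igll1 _x_at, Dntt and the granulocyte sum are higher on replicate 1, and Iglv1 _s_at and Vpreb3 are not.

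Other genes of the pre-B cell receptor pathway were counted by probe set from lists chosen with earlier results of these data known. Of 32 probe sets for 13 partners and signalling genes of the receptor, 12 fell and 6 rose in TAK1-deficient against wild-type Igκ+ cells, with a median of -0.75. Of all probe sets 21.8% fell and 56.8% rose, with a median of 1.53. Above the 60th percentile of mean signal 8934 of 18011 probe sets fell, with a median of -0.69, close to that of this list. Largest were the changes of Zap70, a kinase related to Syk, which rose by 3.87 ± 0.31 with 540.3 and 586 in TAK1-deficient cells, against 25.8 and 21.3, and of the adaptor gene Grb2, which fell by 2.49 ± 0.16. Zap70 is also a kinase of the T cell receptor. On the same arrays, where most probe sets rose, T cell markers had a higher summed signal. The summed signal of 7 of them was 4644 and 5085 in TAK1-deficient Igκ+ cells, 280.2 and 109 in wild-type Igλ+ cells, and 117 and 155 in wild-type Igκ+ cells, although the cells had been depleted of CD3+ cells. Of the 7, 5 and 6 were above background on the TAK1-deficient arrays, 7 and 3 on the Igλ+ arrays and 5 and 5 on the wild-type Igκ+ arrays, and none was at 0. Icos, a costimulatory receptor of T cells, had 1046 and 1138 in TAK1-deficient Igκ+ cells, against 22.2 and 11.01 in the wild type. On the TAK1-deficient arrays Bcl11b had 2431 and 2313. Cd3e had 271 and 287 there, below the median of all probe sets, and Cd3d had 71.4 and 73.7, below background. The summed signal of 7 stromal or endothelial markers was higher as well, at 5008 and 4758, against 1293 and 1127 in wild-type Igκ+ cells. Among these, Pecam1 alone went the other way, with 522 and 381, against 982 and 1060 in wild-type Igκ+ cells. The part of T cells in the Zap70 difference was not tested. Vav1 fell by 1.75 ± 0.21 and the kinase gene Btk by 1.70 ± 0.15. Of 56 probe sets for 18 transcription factors, 25 fell and 17 rose, beside 21.8% and 56.8% of all probe sets, with a median of -0.14. Tcf3, which encodes E2A, fell by 2.95 ± 0.28, and Cbfb, the partner of Runx1, fell by 2.68 ± 0.24, while Irf8 and Spi1 fell by 1.65 ± 0.14 and 1.56 ± 0.33. Ebf1, a main activator of Igll1 and Vpreb1, had a log2 difference of 0.66 ± 0.10, below the median of 1.53 for all probe sets. It lay above the median of -0.69 for probe sets above the 60th percentile. These directions are those of the signals as deposited, and the lists are not given under the other scalings.

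Of 35 probe sets for 15 genes typical of precursor B cells, 18 rose and 4 fell in TAK1-deficient against wild-type Igκ+ cells, with a median of 1.37. These shares are close to those of all probe sets, of which 56.8% rose and 21.8% fell, with a median of 1.53. Arpp21 rose by 5.80 ± 0.27, Tgfbr3 by 4.45 ± 0.31, the recombinase gene Rag2 by 3.84 ± 0.34 and Erg by 3.38 ± 0.29. Their wild-type Igκ+ signals of 2.11 to 23.8 lay near or below the unspiked controls, so these sizes depend on the background. Between wild-type Igλ+ and Igκ+ cells 28 of the 35 were higher in Igλ+ cells, with a median of 0.24 against 0.068 for all probe sets, and 0 passed in limma, with an unadjusted p under 0.05 for 5, beside 1.98% of all probe sets. The smallest were those of Rag1, with 315 and 478 in Igλ+ and 178 and 69.4 in Igκ+ cells, of Tgfbr3, of Rag2 and of Erg. In the receptor and transcription factor lists 0 probe sets passed in that comparison, with 2 and 0 at an unadjusted p under 0.05. The 21 probe sets that name a single κ gene had a median of -3.07 between wild-type Igλ+ and Igκ+ cells, where the 3 Iglv1 probe sets stood at 1.30, 0.97 and -0.37. Of the 21, 0 passed in limma. The 2 Igλ+ arrays lay far apart at many of them, with 4.61 and 2880 for Igkv6-15.

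Genes with the most similar profile over the 6 arrays were sought among 21161 probe sets by the root mean square difference of centred log2 signals. Nearest to Vpreb3 was Reep3, at 0.048, with 597 and 751 in TAK1-deficient Igκ+ cells, 1269 and 2003 in wild-type Igλ+ cells, and 1320 and 1700 in wild-type Igκ+ cells, followed by Pip5k1a and Sdc4. Nearest to Igll1 _at were Atp6v1e1 at 0.084, Aldh18a1 and Slc25a5. Nearest to Vpreb1 were Fndc10 at 0.14, Impdh1 and Ampd2. Iglv1, by its brightest probe set _x_at, had no neighbour closer than Rasgrp2 at 0.20, followed by Hspa14 and Izumo4.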

How the data were processed

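RNA was labelled as biotinylated cRNA and measured on Affymetrix arrays, per the labels' protocols. The authors deposited linear intensities per probe set, for which the submitters' processing notes name MAS5 without a version. The mean signal was 500 on every array with 2% trimmed at either end, so each array carries 1 scaling factor and no gene was centred. Titles gave the groups, and the array with the suffix "-rep" is called replicate 2. Nothing says that they came from separate animals: p-values reflect only how these samples vary, possibly for technical reasons. Having 2 arrays a group limits precision. The genome build is not given in the sources used here.

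Gene names came from GEO's platform annotation (34945 with 1 gene, 932 with several, 9160 with none, 64 controls). Members and lists were chosen with earlier results of these data known. Each probe set was a feature, without a filter on low values, because dim probe sets would pass one through the TAK1-deficient arrays alone. limma 3.58.1 (R 4.3.3) was fitted to log2(signal + 16) over all 6 arrays, with 3 residual degrees of freedom and a mean-variance trend, two-sided. This scale understates changes of dim genes. The code was tested on simulated data. Every member was named. From each other list up to 4 genes were named by the largest log2 difference past the threshold or, where none passed, by the smallest p. Likeness was sought among probe sets of 1 gene above the 40th percentile of mean signal. Ebf1, Dntt, Jchain, Icos and Igkv14-111 were named after their values were seen. Alternatives were pseudocounts of 1 and 64, filters at the 40th and 60th percentile, quantile normalization, median centring, spike-in scaling on 18 hybridization controls, the level adjustment (lowess, span 0.2), 1 probe set per gene, no trend, the suffix as a block, a fit of only the 4 arrays compared, and leaving out each array. Motifs were searched in Python 3.11.15, and figures were drawn with matplotlib 3.10.9.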

Additional observations from a re-analysis of the deposited data

How the results depend on the processing

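Over 18 alternatives, 363 member differences were recomputed: 310 kept their direction and side of the threshold, 11 lost the call, 7 gained it and 35 changed sign. Their causes were not tested. The Iglv1 _s_at and _x_at probe sets kept direction and call in both genotype comparisons under the 17 and 18 alternatives run for them (the fit with 1 probe set per gene left out _s_at).

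In TAK1-deficient against wild-type Igκ+ cells the Igll1 _x_at difference was -0.32 with the level adjustment, -1.74 under spike-in scaling, -1.18 under median centring and -1.36 under quantile normalization. In the same order Vpreb1 had -0.42, -2.52, -1.88 and -1.84. The Igll1 _at probe set had 0.48 after quantile normalization and 1.28 with the level adjustment, and Vpreb3 had 0.38 with the level adjustment. Leaving out 1 array moved the Igll1 _at difference between -0.82 and 0.40 and that of Vpreb1 between -0.043 and 1.05. Against wild-type Igλ+ cells the Igll1 _x_at difference was -0.88, -2.15, -1.60 and -1.70 under these 4 scalings and that of Vpreb1 -0.79, -2.72, -2.09 and -2.06. With the level adjustment Iglv1 _at, the Igll1 _at probe set and Vpreb3 had 0.081, 0.49 and 0.28. Leaving out 1 array moved Igll1 _x_at between -0.67 and 1.93 and Vpreb1 between -0.72 and 1.003. Between wild-type Igλ+ and Igκ+ cells Vpreb3 had -0.094 under spike-in scaling and -0.058 under median centring. Leaving out 1 array moved Iglv1 _at between -0.80 and 0.055, Igll1 _x_at between -0.73 and 1.87, Vpreb1 between -0.50 and 1.23 and Vpreb3 between -0.25 and 0.43.

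With 1 probe set per gene 2 of 4 members were called against wild-type Igκ+ cells and 3 against Igλ+ cells. Of all 18193 probe sets in that fit, 14900 and 14757 were called. With the level adjustment 2 of 7 members were called against Igλ+ cells, beside 20161 of 45037. Leaving out 1 array moved Vpreb3 between -1.22 and -0.87 against wild-type Igκ+ cells and between -1.48 and -0.79 against Igλ+ cells. Of all probe sets 35414 were called against wild-type Igκ+ cells, and 20945, 13925, 19584 and 14900 with the 40th and 60th percentile filters, the level adjustment and 1 probe set per gene. Against Igλ+ cells 35067 were called, and 21216, 14154, 20161 and 14757. Filters and 1 probe set per gene test fewer probe sets. Calls against wild-type Igκ+ cells split into 25599 higher and 9815 lower as deposited, 10616 and 8968 with the level adjustment, 9019 and 21332 under spike-in scaling, 10668 and 21376 under median centring, and 12215 and 15453 under quantile normalization. Between wild-type Igλ+ and Igκ+ cells leaving out 1 array gave 0 to 25 calls, with 25 without Igλ+ replicate 2.

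Replicate numbers were not shown to pair the samples: the deviations of same-numbered arrays correlated at 0, 0.002 and 0.194. With the title suffix as a replicate block, 4, 0 and 5 members and 35603, 0 and 35202 of all probe sets were called in the 3 comparisons.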

Other observations

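The heavy chain gene Ighm, whose product pairs with the surrogate or the conventional light chain, had 11 probe sets that went separate ways. Its brightest had 5634 and 7336 in TAK1-deficient Igκ+ cells, 7486 and 7650 in wild-type Igλ+ cells, and 7199 and 8585 in wild-type Igκ+ cells. One of the dimmer ones had 35.0 and 189 in TAK1-deficient Igκ+ cells, 1255 and 4.24 in wild-type Igλ+ cells, and 5036 and 37.3 in wild-type Igκ+ cells. Of the 11, 7 were at least 5-fold higher on wild-type Igκ+ replicate 1 than on replicate 2, as were 6.61% of all probe sets. The most different of the 11 had 2666 and 2.65 there. These probe sets were singled out after their values were seen, and the difference was not tested, since it lies within a group.

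Of the 7 member probe sets all passed a filter at the 40th percentile of mean signal, and 5 passed one at the 60th, which left out Vpreb1 and the Igll1 _x_at probe set.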
